A study of Mus musculus with 2 samples.

Results

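The 8 genes described here carry the signal of leukemia inhibitory factor (LIF) in mouse embryonic stem (ES) cells: the receptor chains Lifr and Il6st, the kinase Jak1, the transcription factor Stat3, and 4 genes known as Stat3 targets, Socs3, Gbx2, Pim1 and Pim3. They are a list of names out of 18193 genes with a probe set of their own, picked by their place in the pathway, with earlier results of these data known. No measured value enters the rule, and all of their 23 probe sets on the array are included. Total RNA had been hybridised to Affymetrix Mouse Genome 430 2.0 arrays, with 1 array from a control ES cell culture and 1 from an ES cell culture labelled as a knockout (KO) of Dnmt1, the maintenance DNA methyltransferase. The KO array is named by its title, since the source label calls both samples a control. The labels do not give the KO allele, the parental line, the passage, the culture medium or whether LIF or feeder cells were used.

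LIF binds Lifr, which pairs with the shared signalling chain gp130, the product of Il6st. Jak1, bound to these chains, phosphorylates Stat3, which enters the nucleus and switches on its targets, and in mouse ES cells this route sustains self-renewal. Socs3, itself a target, shuts the receptor complex down again, so its transcript is commonly read as a gauge of recent Stat3 activity. Phosphorylation itself is not measured by an expression array.

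None of the 8 genes reached a 2-fold difference between the arrays in either direction. By their brightest probe sets, Lifr, Jak1 and Stat3 sat a little above the typical gene of the KO array, while Il6st and the 4 targets sat at or a little below it. Every gene was within 1.5-fold of it. With 1 array per group there is no spread between replicates, so these are single measurements without a test. Each value is a signal, a linear brightness per probe set, and each ratio is KO over control on the log2 scale. The typical gene was 1.34-fold brighter on the KO array (a log2 shift of 0.43). Ratios below are relative to that shift unless called as deposited. A signal at or below its array's median (60.9 on the control array, 74.2 on the KO array) was treated as lying at a floor, where no ratio can be read.

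The labels were first checked against the genes themselves. The Dnmt1 signal was 1949.1 in the control and 262.1 in the KO culture, a 9.99-fold decrease once the shift is removed. All 10 listed ES cell markers, among them Pou5f1 (-0.13) and Sox2 (-0.07), were above the floor on both arrays, and their signals summed to 31917.1 in the control and 40254.7 in the KO culture. Relative to the shift 7 of the 10 were lower and 3 higher. Nanog, a pluripotency factor, passed 2-fold (592.5 to 1965.5, 2.47-fold higher). Utf1, a chromatin factor of ES cells, was lowest by its brightest probe set (2460.9 to 2154.9, -0.62). Its 2 probe sets averaged -0.33 ± 0.41 (SD). Feeder cells would bring fibroblast markers, of which 14 had a probe set. For 6 of them neither array exceeded the floor (Col3a1, Pdgfrb, Lum, Dcn, Postn and S100a4). None was listed at 0, and the summed signal was 3544.4 and 4586.9. Relative to the shift 5 of the 8 measured were lower and 3 higher, from the actin-binding gene Tagln (707.9 to 345.9, 2.75-fold lower) to the filament gene Vim (1016.1 to 1986.0, 0.54). Of 12 primitive endoderm markers, 3 were below the floor on both arrays (Sox7, Afp and Ttr), none was listed at 0, and the summed signal was 2774.3 and 4309.4. Relative to the shift 4 of the 9 measured were lower and 5 higher. The transcription factor Hnf4a was lowest (140.5 to 60.1, at most -1.35, though another of its probe sets had -0.01), and the matrix gene Sparc highest (1030.7 to 1904.0, 0.46, with its 3 probe sets averaging 0.02 ± 0.62, SD). The summed signals are as deposited, so the 1.34-fold shift of the typical gene is still in them. KO over control, the sums were 1.26-fold for the ES cell, 1.29-fold for the fibroblast and 1.55-fold for the primitive endoderm markers. Bright genes weigh most in such sums. The part of other cells in the ratios below was not tested, and in bulk RNA fewer cells of a type and less RNA per cell cannot be told apart.

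Promoter sequences are shown for 2 of the genes, because Stat3 binds a known DNA element and Dnmt1 acts on CpG dinucleotides. RefSeq windows (GRCm38.p6) of 300 bases, from 250 before to 50 after an annotated start site, were matched for all 8 genes and held 10 start sites. The Stat element TTCNNNGAA, a pattern that reads the same on both strands, was the only motif searched. It occurred in 1 of the 10 windows, that of Socs3, and in 8.3% of 32851 windows of the same length. In Socs3 it spans positions -154 to -146 from the start site. The 250 bases before the Socs3 start site (chr11:117969367-117969616, minus strand) are printed with the match in capitals.
Socs3: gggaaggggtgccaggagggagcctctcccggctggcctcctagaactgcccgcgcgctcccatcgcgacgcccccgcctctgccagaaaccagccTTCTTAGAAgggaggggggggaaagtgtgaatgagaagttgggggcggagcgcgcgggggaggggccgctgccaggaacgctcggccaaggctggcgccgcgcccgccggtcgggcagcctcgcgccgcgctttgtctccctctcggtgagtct
A match is a string of letters and no measure of binding, and the other windows only lack these letters.

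The same windows differ in CpG content. Lifr has a start site in a CpG-dense window and another in a CpG-poor one, with 53 and 4 CpGs in 300 bases, against a median of 7 over all windows. The 100 bases before each start site, at chr15:7129472-7129571 and chr15:7140442-7140541 on the plus strand, are printed with each CpG in capitals.
Lifr, first start site: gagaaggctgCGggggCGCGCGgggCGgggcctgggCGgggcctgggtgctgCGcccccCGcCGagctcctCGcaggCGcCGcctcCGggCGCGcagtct
Lifr, second start site: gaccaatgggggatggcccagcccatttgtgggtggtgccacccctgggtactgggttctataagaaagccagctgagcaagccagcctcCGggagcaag
The files do not pair the Lifr probe sets with these start sites. Pim1 likewise has windows with 42 and 5 CpGs. The single windows of Pim3, Il6st, Socs3, Jak1, Gbx2 and Stat3 hold 40, 33, 31, 29, 27 and 15 CpGs, all above the median window. The upper quartile over all windows was 20 CpGs, and windows of readable genes alone were not taken as a background. No methylation was measured in this study, so the state of these CpGs in the KO cells is not known from these data.

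Of the receptor chains, Lifr had the highest ratio of the 8 genes. Its readable probe set went from 381.1 (control) to 651.0 (KO). This is 1.71-fold higher as deposited and 1.27-fold higher relative to the shift, a log2 ratio of 0.35 at the 87.5 percentile among 10995 genes above both floors. The other Lifr probe sets were below the floor on both arrays, at 46.4 and 60.9 for one and 5.7 and 8.0 for the other, so the Lifr ratio rests on 1 probe set.

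Il6st, the gp130 gene, was read by 4 probe sets that did not point the same way. Its brightest probe set went from 237.6 on the control array to 295.2 on the KO array, a log2 ratio of -0.11 relative to the shift. The next probe sets went from 205.5 to 313.9 (0.19), from 113.9 to 171.5 (0.17) and from 87.0 to 152.5 (0.38), all above the shift. The first pair of these carries the same sequence record in the annotation and had nearly equal ratios. The mean over the 4 probe sets was 0.16 ± 0.20 (SD between probe sets), so whether Il6st lay above or below the typical gene depended on the probe set used.

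Jak1, the kinase bound to the receptor chains, showed a similar disagreement. Its brightest probe set went from 520.1 to 861.7, a log2 ratio of 0.30 at the 84.6 percentile. The other Jak1 probe sets, annotated with the same sequence record, went from 412.8 to 508.4 (-0.12) and from 153.3 to 194.2 (-0.08). The mean of the 3 was 0.03 ± 0.24 (SD between probe sets), close to the typical gene.

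Stat3, the transcription factor at the centre of the route, had 3 readable probe sets of 4. The bright ones went from 631.3 to 932.1 (0.14) and from 571.0 to 890.6 (0.22), and so lay slightly above the typical gene. The third was near the floor, from 93.0 to 92.7, which is -0.43 relative to the shift. The last was below the floor on both arrays. The mean of the readable probe sets was -0.03 ± 0.35 (SD between probe sets), a spread wider than any of the ratios of its bright probe sets.

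Among the targets, Socs3, the feedback inhibitor of the receptor complex, had the closest agreement between probe sets. Its signals went from 2002.3 to 2636.3, from 1274.1 to 1682.8 and from 832.1 to 1137.4. As deposited each was higher on the KO array, by 1.32-fold, 1.32-fold and 1.37-fold, which is almost exactly the shift of all genes. Relative to the shift the ratios were -0.03, -0.02 and 0.03, with a mean of -0.01 ± 0.03 (SD between probe sets). Socs3 thus sat at the middle of all genes, at the 45.9 percentile by its brightest probe set.

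Pim1 and Pim3 encode related serine/threonine kinases that promote survival and growth. The Pim1 signals went from 1279.0 to 1705.9 (-0.01) and from 693.5 to 888.7 (-0.07), with a mean of -0.04 ± 0.04 (SD between 2 probe sets). Those of Pim3 went from 1655.1 to 1869.3 (-0.25), from 724.0 to 878.0 (-0.15) and from 150.2 to 190.8 (-0.08). All Pim3 probe sets lay below the shift, with a mean of -0.16 ± 0.09 (SD between probe sets), and the gene had the lowest ratio of the 8, at the 19.8 percentile. As deposited Pim3 was still 1.13-fold higher on the KO array. Gbx2, a homeobox transcription factor that can prolong self-renewal, had 1 probe set, which went from 375.4 to 474.9, a log2 ratio of -0.09 at the 38.3 percentile. Probe sets of Socs3 and Pim3 whose names end in x_at contain probes that can bind related transcripts. The brightest probe set of each of these genes is of this kind. The part of related transcripts in their signals was not tested.

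**Figure D1:**
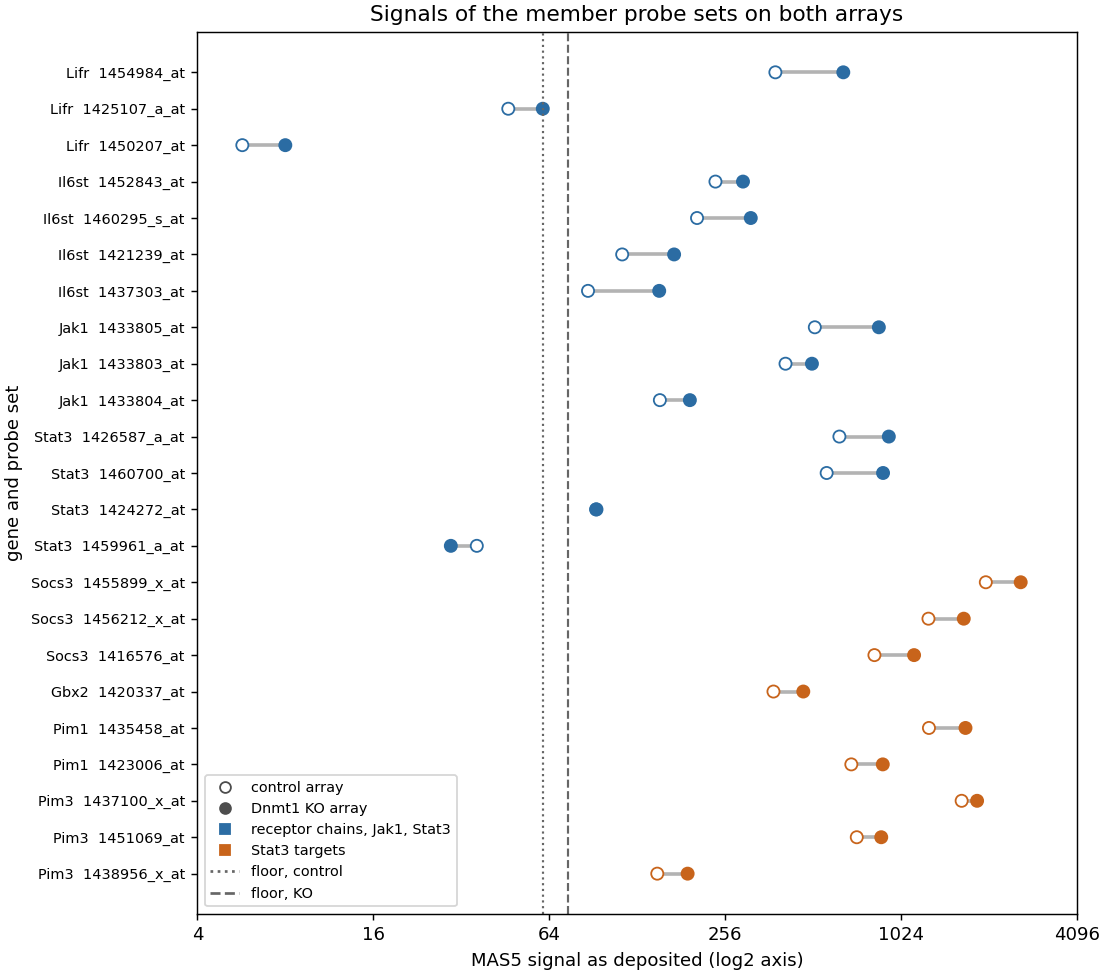
Signals of the 23 probe sets of the 8 genes, as deposited, on a log2 axis. Open circles are the control array, filled circles the Dnmt1 KO array, blue the receptor chains, Jak1 and Stat3, orange the Stat3 targets, and the vertical lines the floor of each array. In 21 of the 23 probe sets the KO signal was the higher one, and the 3 probe sets below the floor on both arrays belong to Lifr and Stat3.

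As deposited, all 8 genes were higher on the KO array, which was true of 91.4% of genes above both floors and is therefore no property of the pathway. Of their 23 probe sets, the 20 above both floors included 19 with the higher signal on the KO array, against 90.7% of all such probe sets. Relative to the shift, 0 of 8 genes passed 2-fold upward and 0 of 8 downward. Among 12226 genes above the floor on at least 1 array, 1.09% passed 2-fold upward and 0.532% passed it downward. As deposited the members' counts were again 0 and 0, against 4.92% and 0.0982% of all genes. At 1.5-fold relative to the shift the members' counts were also 0 and 0, against 4.74% of genes higher and 4.25% lower. All 8 were within 1.5-fold of the shift, as were 91.8% of genes above both floors, so the members' small ratios are near the background. As deposited, 2 of the 8, Lifr and Jak1, were at least 1.5-fold higher, against 28% of all genes.

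Receptor and kinase genes, with the transcription factor Stat3 placed among them, were then set against the targets. The median log2 ratio was 0.22 (range -0.11 to 0.35) for Lifr, Il6st, Jak1 and Stat3, and -0.06 (range -0.25 to -0.01) for Socs3, Gbx2, Pim1 and Pim3, beside 0 for all genes by construction. The targets' median was therefore lower by 0.28 on the log2 scale. The ranges overlapped, because Il6st at -0.11 lay below Socs3, Gbx2 and Pim1. This difference was about as large as the spread between probe sets of a single gene (SD 0.24, pooled over 4704 genes). That SD is taken on the same arrays and does not measure the error of a difference of medians. The difference was smaller when all readable probe sets were averaged, at -0.16. With the mean over every probe set of a gene, readable or not, it was -0.09. Of the readable probe sets, those above both floors, 7 of 11 for the signalling genes and 1 of 9 for the targets lay above the shift. Against the 8 of 9 target probe sets below the shift, 51.6% of all such probe sets were below it, but probe sets of one gene share their transcript and are not independent. Among genes with more than 1 readable probe set, the SD between probe sets was 0.20 to 0.35 for Il6st, Jak1 and Stat3. It was 0.03 to 0.09 for Socs3, Pim1 and Pim3, beside the pooled 0.24. Brightness differed as well. On the control array Il6st read 87.0 to 237.6 and Socs3 832.1 to 2002.3, though Pim3 had a probe set at 150.2. The Stat3 SD includes its probe set near the floor. The part of brightness in these SDs was not tested. Against a lowess curve of ratio on signal, which allows for a shift that changes with brightness, the medians were 0.19 and -0.07. Whether the 2 groups of genes differ between genotypes cannot be tested with 1 array each.

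**Figure D2:**
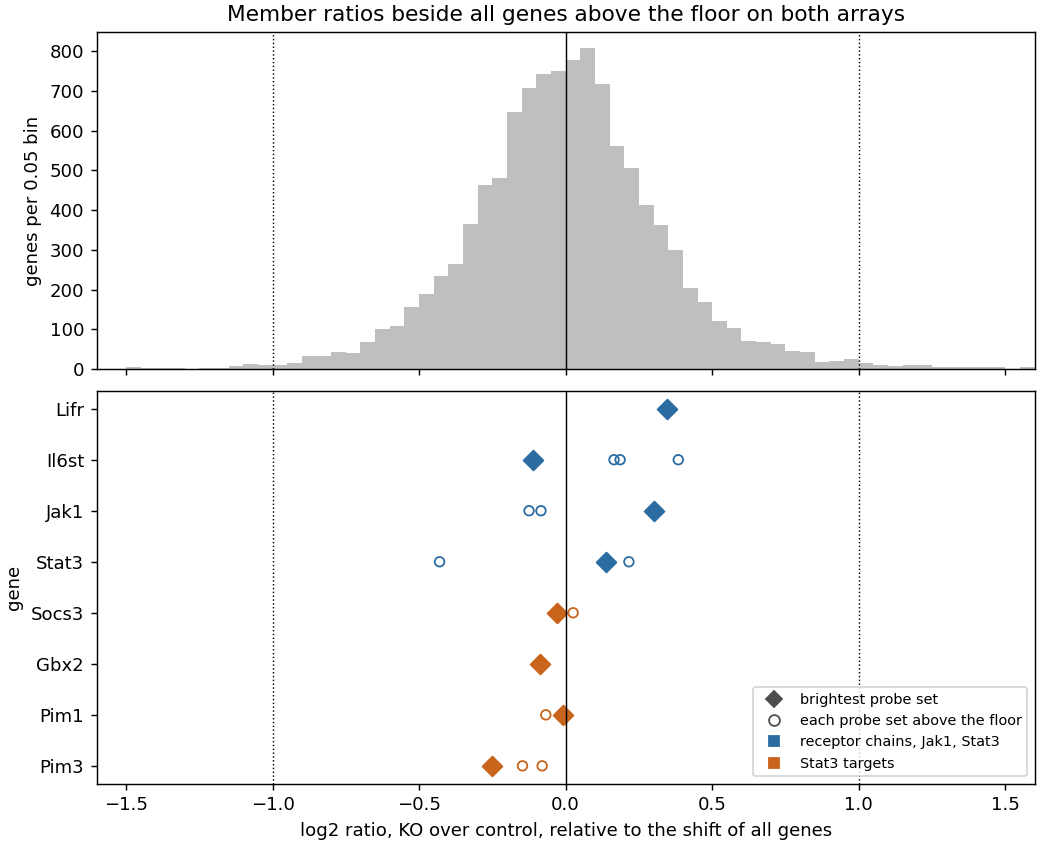
Log2 ratios, KO over control, relative to the shift. The upper panel counts all 10995 genes above both floors per bin of 0.05 (23 lie outside the plotted range). The lower panel gives each member gene by its brightest probe set (diamond) and its other readable probe sets (circles), and the dotted lines mark 2-fold. The orange targets sit between -0.25 and 0.03, while the blue probe sets of the signalling genes spread from -0.43 to 0.38.

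Other genes of the pathway were read from lists by role. Of the cytokines that signal through gp130, 6 of 10 listed had a probe set and only Ctf1, cardiotrophin 1, was above the floor on both arrays, from 174.0 to 235.8 (0.01). Lif itself was below the floor on both arrays, at 19.0 and 46.9, as were Il6 and Il11. Clcf1, a ligand of the ciliary neurotrophic factor receptor, was above the floor on the control array alone, at 86.7 and 61.3, with a log2 ratio of at most -0.65. None of the 3 measured ligands reached 2-fold.

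Partner receptor chains, which give gp130 its choice of ligand, had 3 measured genes, all below the shift and none by 2-fold. Il6ra, the interleukin 6 receptor chain, went from 188.2 to 239.0 (-0.08), and Osmr, the oncostatin M receptor chain, from 74.0 to 78.2 (-0.35). Cntfr, the chain for ciliary neurotrophic factor, had the lowest ratio, from 166.6 to 134.5 (-0.73). Each of these rests on 1 probe set, and Osmr was just above the floor.

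Of the other JAK kinases and STAT factors, 8 of 9 listed were measured, with a median of 0.11. Stat4, a factor best known in interleukin 12 signalling of lymphocytes, went from 150.8 to 96.2 and was the only one past 2-fold, 2.11-fold lower relative to the shift on 1 probe set. As deposited it was 2-fold in neither direction, with a log2 ratio of -0.65. The other JAK kinases stayed close to the typical gene, with Jak2 at 0.10, Jak3 at -0.02 and Tyk2 at 0.13. Jak3 lies on chromosome 8, where the median over 601 readable genes was -0.37, and the part of the chromosome in its ratio was not tested. Stat6 went from 316.8 to 508.4 (0.26), the highest ratio among the brightest probe sets readable on both arrays. Stat5a, readable on the KO array alone, had at least 0.24, and over their 2 probe sets each Stat5b averaged 0.26 ± 0.20 (SD) and Stat6 0.15 ± 0.15.

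All 14 listed negative regulators were measured, none was 2-fold different, and their median was 0.04. Socs2, a SOCS family member that is best known for restraining growth hormone signalling, stood lowest. Its signal went from 1008.2 to 842.4, a log2 ratio of -0.68, and its 4 probe sets averaged -0.78 ± 0.12 (SD between probe sets). It was thus lower on the KO array as deposited as well, at -0.26. This set it apart in value from Socs3, whose 3 probe sets averaged -0.01, though the difference has no test. Pias2, a SUMO ligase family member, went from 788.8 to 1309.5 (0.31), the highest ratio among the brightest probe sets readable on both arrays, but its 3 probe sets averaged 0.10 ± 0.20 (SD). Its order at the top is not settled, since Socs1 had at least 0.29 and the 2 probe sets of Pias4 averaged 0.28 ± 0.40 (SD). Ptpn2, a phosphatase of JAK kinases and STAT factors named after its value was seen, went from 1005.1 to 1533.2 (0.18).

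Adaptors that link gp130 to the MAP kinase and PI3 kinase branches were all measured, 7 of 7, with a median of -0.12 and no 2-fold difference. Grb2, which couples receptors to Ras activation, went from 600.9 to 1123.4 (0.48), and its 2 probe sets averaged 0.43 ± 0.06 (SD). Gab1, a docking protein, went from 3026.7 to 2910.4 (-0.48), and its 3 probe sets averaged -0.53 ± 0.05 (SD). Gab1, like Jak3, lies on chromosome 8 (median -0.37), and the part of the chromosome in its ratio was not tested. Ptpn11, the phosphatase Shp2 that binds gp130, had 0.05.

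The other known LIF and Stat3 targets had a wider range of ratios than Socs3, Gbx2, Pim1 and Pim3. They are also more genes, and a range widens with the number of genes. Of 20 listed, 17 were above the floor on both arrays, with 11 above the shift, 6 below it and a median of 0.32, beside 0 for all genes. Klf4, a pluripotency transcription factor, went from 187.1 to 947.8 and alone passed 2-fold, being 3.77-fold higher relative to the shift (1.61 ± 0.43, SD over 2 probe sets). As deposited, 3 of the 17 were at least 2-fold higher and 0 lower. Of all 12226 genes above the floor on at least 1 array, 4.92% were higher and 0.0982% lower by that measure. The other pair, Nfkbiz and Fos, was named after the values were seen. Nfkbiz, a regulator of NF-kappaB, went from 80.1 to 189.1 (0.81), and its 2 probe sets averaged 0.49 ± 0.46 (SD). Fos, an immediate early transcription factor, went from 307.0 to 636.6 (0.63).

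Targets with values on either side of the shift followed, all but Sgk1 named after their values were seen. The immediate early gene Egr1 had 0.51 (1629.4 to 3126.5), Zfp36, which destabilises messenger RNAs, 0.50 (572.9 to 1089.1), and Tfcp2l1, a self-renewal factor downstream of Stat3, 0.47 (236.5 to 440.0). Pim2, the third kinase of the Pim family, went from 914.0 to 1577.3 (0.36), whereas Pim1 and Pim3 were at -0.01 and -0.25. Myc, a growth regulator, had -0.22 (894.0 to 1027.3), and Klf5, a relative of Klf4, -0.12, its 2 probe sets averaging -0.38 ± 0.38 (SD). The 6 probe sets of the survival gene Mcl1 averaged -0.02 ± 0.10 (SD). Sgk1, a growth factor responsive kinase, was lowest, from 2193.9 to 1987.1 (-0.57), next to Junb at -0.55 (634.5 to 583.7), which also lies on chromosome 8. Pramel7, Gadd45g and Il4ra were below the floor on both arrays.

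**Figure D3:**
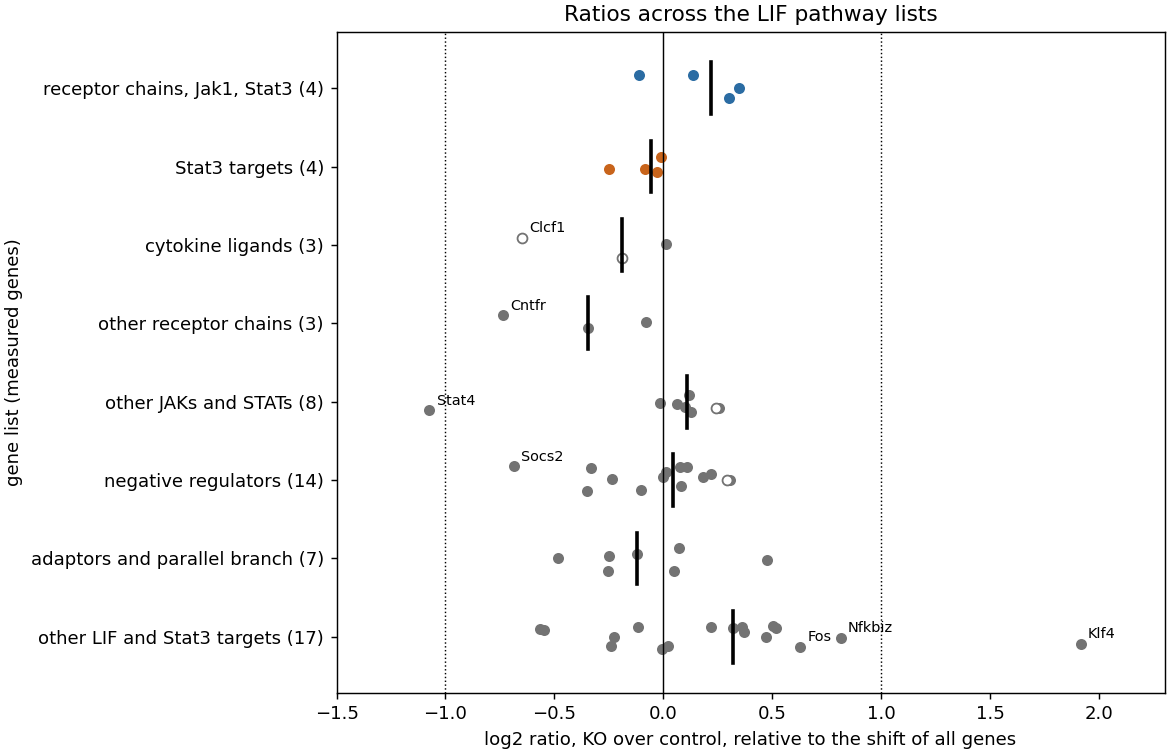
Log2 ratios, KO over control and relative to the shift, for the member genes (coloured) and the other pathway lists (grey), with the number of measured genes in brackets. Open circles are bounds, for genes above the floor on 1 array, black bars are list medians, dotted lines mark 2-fold, and genes at 0.6 or more in size are named. Klf4 at 1.92 and Stat4 at -1.07 are the only genes past 2-fold. The 4 member targets span the narrowest range, but the lists differ in their number of genes.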

How the data were processed

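Values were the signal intensity of each probe set as deposited, made with MAS5 per the submitters' processing notes. The sources used here give no scaling, target intensity or detection calls. The 45101 probe sets included 64 control probe sets, which were left out. Genes were named from the platform annotation where a probe set had 1 symbol (34945), with symbols updated through RefSeq GRCm38.p6 (34741 matched). No probe set with several symbols named a member. Signals were floored at each array's median (60.9 and 74.2), log2-transformed, reduced to the brightest probe set of each gene by mean floored log2 signal and centred on the median ratio of genes above the floor on both arrays. Genes were counted at 2-fold. With 1 array per group no test was run, and precision is limited by that number. The method was tested on simulated data in which bright genes were given changes larger than 2-fold. Differences as small as those of the members were not simulated. Members and lists were chosen with earlier results of these data known. Named were all members, Lif and Dnmt1, and in each list every gene at least 2-fold different or, beside these, the highest and lowest gene. Highest and lowest refer to brightest probe sets, with bounds taken at their value. Genes outside that rule were added with their values known. They were those so marked in the text, the marker genes below the floor, Osmr, Jak2, Jak3, Tyk2, Stat5a and Stat5b. Also added were Socs1, Pias4, Il6, Il11, Ptpn11, Pou5f1, Sox2, Pramel7, Gadd45g and Il4ra. Alternatives were no centring, quantile normalization, lowess (fraction 0.3), floors at the 25th and 75th percentile or none, means over probe sets, and thresholds of 1.5-fold and 3-fold. Python 3.11.15, pandas 2.3.3 and statsmodels 0.14.6 were used.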

Additional observations from a re-analysis of the deposited data

How the results depend on the processing

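The counts of members at least 2-fold higher or lower were 0 and 0 under every alternative run, including thresholds of 1.5-fold and 3-fold relative to the shift. As deposited, without centring, the medians became 0.65 for the receptor chains, Jak1 and Stat3 and 0.37 for the targets, since centring subtracts 1 constant from every gene, and their difference stayed at -0.28. Across the alternatives the difference ran from -0.28 to -0.09, with the smallest size for the mean over all probe sets of a gene, where 2 of the 4 targets lay above the shift. A floor at the 75th percentile, quantile normalization and lowess left 3 of 4 signalling genes above 0 and 0 of 4 targets above 0, and a floor at the 25th percentile put 1 target above 0. All 8 members lay above the floor on both arrays at every floor tried, so another floor could change only the centring constant. Without a floor their ratios did not change. These floor settings are counted below, but they do not test the member ratios or the difference between the groups. Of 64 single member ratios recomputed, 52 moved by less than the pooled probe set SD of 0.24 and 12 by more. Of these, 8 were the ratios as deposited. The others were Lifr (0.06) and Il6st (0.20) with the mean over all probe sets, and Il6st (0.16) and Jak1 (0.03) with the mean over probe sets above the floor, a setting chosen after seeing the data. No paired analysis was possible because each group had 1 array, and for the same reason no array could be left out. Without detection calls, the lower limit of a readable signal is the floor chosen here, and 3 of the 23 member probe sets lay below it on both arrays.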
